A study of Homo sapiens with 6 samples.

Results

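The genes described here are the core of the TGF-beta pathway: the 3 TGF-beta ligand genes TGFB1, TGFB2 and TGFB3, the activin subunit gene INHBA, the receptor genes TGFBR1 and TGFBR2, and the signal transducers SMAD2, SMAD3, SMAD4 and SMAD7. They were chosen by name, and the level of each was the sum over all of its Ensembl transcripts in the table. They are 10 of 26409 genes and 80 of the 140004 transcripts that could be joined to a gene. RNA was sequenced from SUM1315, a triple negative breast cancer cell line of wild-type genotype, after 24 h in hypoxia (1% oxygen, 3 libraries), against normoxia (21% oxygen, 3 libraries). Both groups grew in the same medium with serum, insulin and EGF, so all libraries are from 1 line in a complete medium. The study asked how low oxygen acts on ribosome production; the TGF-beta genes are read from the same libraries.

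TGF-beta is secreted bound to a latency peptide and, once freed, binds the type II receptor TGFBR2, which recruits and phosphorylates the type I receptor TGFBR1. The activated type I receptor phosphorylates SMAD2 and SMAD3, which join SMAD4 and enter the nucleus to regulate transcription. SMAD7 is induced by the pathway and inhibits it at the receptor, and activins, dimers of INHBA-type subunits, signal to SMAD2 and SMAD3 through receptors of their own. In breast cancer the pathway is known both for growth arrest and for mesenchymal change and invasion.

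Values are RPKM, read counts divided by transcript length in kilobases and by library size. The steps between low values correspond to depths of about 44000000 to 50700000 reads in hypoxia and 50400000 to 50900000 reads in normoxia. The usual hypoxia genes rose in the libraries labelled hypoxic: all 6 of a list of 6 passed the test, among them the glucose transporter SLC2A1, at 46.9 ± 6.56 RPKM in hypoxia and 5.49 ± 0.220 RPKM in normoxia, and the angiogenic factor VEGFA, at 22.2 ± 2.26 RPKM in hypoxia and 10.1 ± 0.428 RPKM in normoxia (SD, n = 3 each). Defining markers of luminal mammary epithelium were near 0 in every library. The summed level of 6 luminal epithelial markers was 0.115 to 0.237 RPKM in hypoxia and 0.0130 to 0.336 RPKM in normoxia, while the mesenchymal filament gene VIM stood at 6307 to 7439 RPKM in hypoxia and 4741 to 4901 RPKM in normoxia. VIM was the 1 gene raised of 4 tested mesenchymal markers: CDH2, ZEB1 and FN1 had log2 fold changes of -0.26, -0.19 and -0.03 without a call, the list's median was -0.11, and SPARC, not tested, averaged 0.314 RPKM in hypoxia and 0.304 RPKM in normoxia. Of 3 tested fibroblast markers COL1A1 and COL1A2 rose and PDGFRA fell (log2 fold changes 0.60, 0.31 and -0.57), while LUM and PDGFRB were near 0. The estrogen receptor gene ESR1, low in triple negative cells by definition, reached at most 0.209 RPKM. Of 5 basal epithelial markers only EGFR exceeded 1 RPKM. Summed endothelial markers reached at most 0.322 RPKM. Of 3 immune markers only CD68, a lysosomal protein, exceeded 1 RPKM, and it rose (log2 fold change 0.71, adjusted p = 1.10e-05). The part of these markers in the results below was not tested.

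Hypoxia raised 1 member, SMAD7, and lowered 1, TGFB2, while the other 7 of the 9 tested members did not pass the test. Fold changes are on the log2(RPKM + 1) scale, which understates the change of low genes, and were tested with limma over all genes at an adjusted p under 0.05. Of 11884 genes tested, 36.8% were called, 12.4% as raised and 24.4% as lowered, so the members' 1 and 1 of 9 (11.1% each) are not above that background. The groups did not overlap for 3 of the 9, against 52% of all tested genes. The members' median log2 fold change was 0.00, against -0.08 over all tested genes. The share of lowered genes among all calls depended on scaling: it was 66.2% here, 52.6% with median-of-ratios scaling, 47.7% with upper-quartile scaling and 78.2% with libraries rescaled to equal sums. The labels do not say whether the libraries came from separate cultures, so the p-values measure the spread between libraries, which may be technical. In bulk RNA, fewer cells carrying a transcript and less transcript per cell cannot be told apart.

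**Figure D1:**
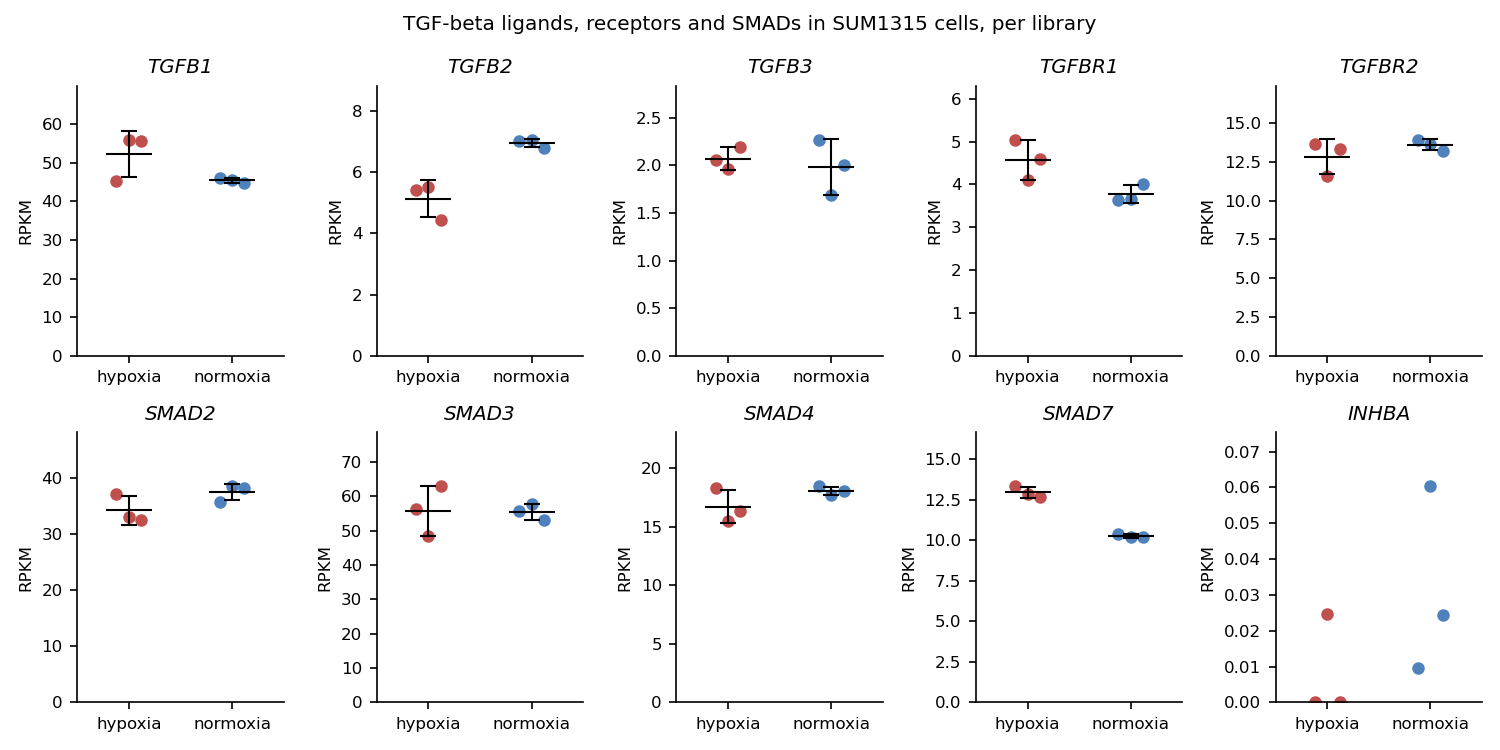
RPKM of each of the 10 genes in the 3 hypoxic libraries (red, left) and the 3 normoxic libraries (blue, right), with the mean and SD as bars except for INHBA, which had almost no reads. The hypoxic points lie above all normoxic points for SMAD7 and TGFBR1 and below all of them for TGFB2.

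Among the ligands, TGFB1 was by far the most abundant and TGFB2 the only one called. The 3 ligand genes are shown with the 250 bases before the outermost start that RefSeq gives (GRCh38.p14). These windows are where letters of the hypoxia and SMAD motifs can be looked for beside the levels of the genes. Capitals mark 2 motifs, searched on both strands, whose matches may overlap. The hypoxia response core is ACGTG, which reads CACGT from the opposite strand, or its variant GCGTG, which there reads CACGC. The SMAD core is CAGAC, and on the opposite strand this reads GTCTG.
TGFB1, chr19:41353923-41354172, minus strand: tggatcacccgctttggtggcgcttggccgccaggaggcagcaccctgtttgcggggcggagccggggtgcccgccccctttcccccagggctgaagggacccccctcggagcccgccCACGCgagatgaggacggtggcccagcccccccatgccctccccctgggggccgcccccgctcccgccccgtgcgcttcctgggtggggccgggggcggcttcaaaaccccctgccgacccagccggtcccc
TGFB2, chr1:218345086-218345335, plus strand: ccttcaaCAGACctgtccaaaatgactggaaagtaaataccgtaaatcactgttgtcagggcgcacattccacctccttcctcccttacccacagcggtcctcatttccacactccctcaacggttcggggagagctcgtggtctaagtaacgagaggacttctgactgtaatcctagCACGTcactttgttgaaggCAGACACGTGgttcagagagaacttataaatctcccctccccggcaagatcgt
TGFB3, chr14:75983012-75983261, minus strand: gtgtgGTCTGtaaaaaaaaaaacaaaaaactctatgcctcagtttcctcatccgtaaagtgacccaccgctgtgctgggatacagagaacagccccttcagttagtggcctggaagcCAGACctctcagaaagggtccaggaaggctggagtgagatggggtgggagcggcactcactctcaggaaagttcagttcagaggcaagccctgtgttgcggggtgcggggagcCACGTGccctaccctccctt
The TGFB1 window holds 1 hypoxia core, 132 bases before the start, and no SMAD core. The TGFB2 window holds hypoxia cores 72, 49 and 48 bases before the start and SMAD cores at 243 and 53. The TGFB3 window holds the palindrome CACGTG, counted once on each strand at 20 and 19 bases, and SMAD cores at 245 and 133. Such letters are common: 43.2% of 34943 promoter windows of this length hold a hypoxia core and 38.0% a SMAD core. Of the 9 members with a window at the outermost RefSeq start, 6 hold a hypoxia core and 3 a SMAD core. Only that window was searched for each member, whereas the 34943 windows take in other starts too. The searched windows of TGFBR1, SMAD4 and SMAD7 hold none of the hypoxia core. TGFBR1 has 8 listed windows and SMAD7 has 3, so most of theirs were not searched. The TGFB2 window also overlaps an exon of the antisense gene TGFB2-AS1.

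TGFB2 (ENSG00000092969, chr1:218346235-218444619, plus strand, GRCh38) encodes the isoform known for its dependence on betaglycan for receptor binding. It had 5.42, 5.52 and 4.43 RPKM in hypoxia, against 7.02, 7.04 and 6.79 RPKM in normoxia. Every hypoxic library lay below every normoxic one, as in 35.6% of all tested genes, and the third hypoxic library was the lowest. The mean fell by 26.3%, to 5.12 ± 0.601 RPKM in hypoxia, against 6.95 ± 0.138 RPKM in normoxia (SD, n = 3 each). Its log2 fold change was -0.38 (SE 0.09, 95% interval -0.58 to -0.19, adjusted p = 0.00788). The call was lost when genes below the filter were included (adjusted p = 0.0512) and held under the other 15 alternatives, from 0.00467. With a GC trend removed the log2 fold change was -0.21 (adjusted p = 0.0161). The leading transcript TGFB2-202 shares 1371 exon bases with the same-strand gene TGFB2-OT1, so reads there cannot be told apart by position. The deposited values put TGFB2-OT1 at a mean of 2.65e-13 RPKM.

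TGFB1 (ENSG00000105329, chr19:41301587-41353911, minus strand) encodes the most widely expressed isoform. It had 45.3, 55.9 and 55.6 RPKM in hypoxia, against 46.0, 45.4 and 44.8 RPKM in normoxia. Hypoxic libraries 2 and 3 were above all normoxic ones, whereas hypoxic library 1 lay within the normoxic range, so the groups overlapped. The log2 fold change of 0.19 (SE 0.08, 95% interval 0.02 to 0.37) missed the threshold (adjusted p = 0.0770). It passed with median-of-ratios scaling (0.0404), with upper-quartile scaling (0.0423) and without hypoxic library 1 (0.00421), and shrank to a log2 fold change of 0.04 when a trend with GC content was removed. Nearly all of it, 97.8%, came from the transcript TGFB1-201.

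TGFB3 (ENSG00000119699, chr14:75958099-75982991, minus strand), a ligand with roles in palate and wound repair, was the lowest of the expressed members. It had 2.05, 1.96 and 2.19 RPKM in hypoxia, against 2.27, 1.68 and 2.00 RPKM in normoxia, from 152 to 259 estimated reads per library. The groups overlapped, and the log2 fold change was 0.05 (adjusted p = 0.739), with a sign that turned with libraries rescaled to equal sums, with protein-coding transcripts alone and with limma-voom. Its main transcript shares 163 exon bases with the antisense gene TGFB3-AS1 (mean 0.0454 RPKM), and the library kit, as labelled, is not stated to keep strand.

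TGFB1 held a larger part of the ligand mix in every hypoxic library than in any normoxic one. Of the summed RPKM of the 3 TGFB genes, TGFB1 made up 87.8 ± 1.79% in hypoxia and 83.6 ± 0.347% in normoxia, and TGFB2 made up 8.70 ± 1.58% in hypoxia and 12.8 ± 0.186% in normoxia (SD, n = 3 each). For both genes the groups did not overlap, yet the two-sided exact permutation test gave p = 0.1, the smallest that 3 against 3 allows. Adjusted over the 3 shares it was 0.15. The 3 shares add up to the whole and TGFB3 held little, so TGFB1 and TGFB2 count nearly as 1 difference. No background of such shares over all genes is available here. TGFB3 held 3.50 ± 0.399% in hypoxia and 3.64 ± 0.50% in normoxia, with overlap (exact permutation p = 0.7).

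INHBA (ENSG00000122641, chr7:41667168-41705834, minus strand), the subunit of activin A, was close to undetected. It was listed at 0, 0.0248 and 0 RPKM in hypoxia, against 0.00974, 0.0603 and 0.0243 RPKM in normoxia. These values correspond to about 0, 2 and 0 reads in hypoxia and 3, 5 and 2 reads in normoxia, and a count of 0 still allows up to 3. It was not tested, and no difference could be seen at this depth.

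The receptors differed in level more than in response. TGFBR2 (ENSG00000163513, chr3:30606502-30694142, plus strand), the ligand-binding receptor, had 13.6, 11.6 and 13.3 RPKM in hypoxia, against 13.9, 13.7 and 13.2 RPKM in normoxia. The groups overlapped, and the log2 fold change of -0.08 (95% interval -0.25 to 0.09, adjusted p = 0.431) was close to the median of all tested genes. TGFBR1 (ENSG00000106799, chr9:99104038-99154192, plus strand), the signalling kinase, had 5.04, 4.10 and 4.59 RPKM in hypoxia, against 3.65, 3.65 and 4.02 RPKM in normoxia. Every hypoxic library was above every normoxic one, as in 16.4% of all tested genes, although hypoxic library 2 and normoxic library 3 were close. The means were 4.58 ± 0.467 RPKM in hypoxia and 3.77 ± 0.213 RPKM in normoxia (SD, n = 3 each), and the log2 fold change of 0.22 (SE 0.09, 95% interval 0.02 to 0.42) missed the threshold (adjusted p = 0.0729). It passed with median-of-ratios scaling (0.0454), upper-quartile scaling (0.0347), a GC trend removed (0.00724) and without hypoxic library 2 (0.0335).

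**Figure D2:**
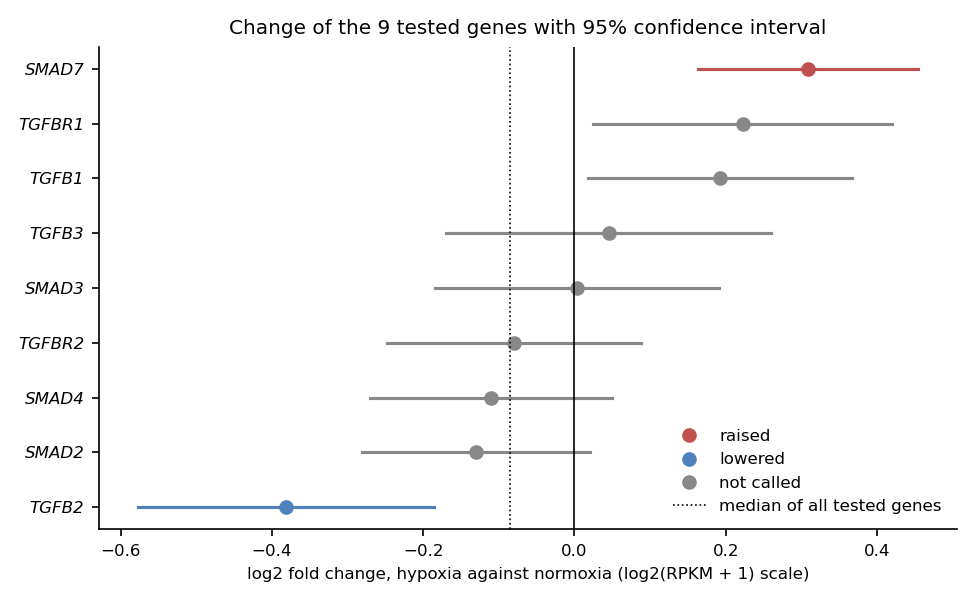
Log2 fold change, hypoxia against normoxia, of the 9 tested genes, with 95% confidence intervals and the median of all tested genes as a dotted line. SMAD7 at 0.31 and TGFB2 at -0.38 are the called genes, and the intervals of TGFBR1 and TGFB1 start just above 0 without passing the adjusted threshold.

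The receptor-activated SMADs and SMAD4 were not called. SMAD3 (ENSG00000166949, chr15:67063763-67195195, plus strand) was the most abundant member, with 56.3, 48.4 and 62.9 RPKM in hypoxia, against 55.6, 57.7 and 53.1 RPKM in normoxia. The normoxic values sat inside the hypoxic range, and the log2 fold change was 0.00 (95% interval -0.18 to 0.19, adjusted p = 0.976), below 0 with libraries rescaled to equal sums (-0.06). SMAD2 (ENSG00000175387, chr18:47808957-47931146, minus strand), its partner in TGF-beta and activin signalling, had 37.2, 33.0 and 32.4 RPKM in hypoxia, against 35.8, 38.5 and 38.2 RPKM in normoxia. Hypoxic libraries 2 and 3 were below all normoxic ones and library 1 was not; the log2 fold change was -0.13 (95% interval -0.28 to 0.02, adjusted p = 0.151), and it passed without hypoxic library 1 (adjusted p = 0.0333). SMAD4 (ENSG00000141646, chr18:51028394-51085045, plus strand), the common partner, had 18.3, 15.5 and 16.3 RPKM in hypoxia, against 18.4, 17.7 and 18.1 RPKM in normoxia. Its groups overlapped and its log2 fold change was -0.11 (95% interval -0.27 to 0.05, adjusted p = 0.248).

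SMAD7 (ENSG00000101665, chr18:48919853-48952052, minus strand), the inhibitory SMAD, was the raised member. It had 13.3, 12.9 and 12.7 RPKM in hypoxia, against 10.4, 10.2 and 10.2 RPKM in normoxia. Every hypoxic library lay above every normoxic one, as in 16.4% of all tested genes, and the summed level had little spread within either group. The mean was 13.0 ± 0.327 RPKM in hypoxia and 10.3 ± 0.127 RPKM in normoxia (SD, n = 3 each), 26.2% higher. The log2 fold change of 0.31 (SE 0.07, 95% interval 0.16 to 0.45, adjusted p = 0.00529) passed in all 16 alternatives, with adjusted p between 0.00223 and 0.0297. The SMAD cores near the start RefSeq gives for SMAD7 are shown, with CAGAC in capitals and 10 bases on either side. They lie 217 and 128 bases before that start, on the minus strand.
First site, chr18:48951168-48951192: cggacgccccCAGACctctgaggtt
Second site, chr18:48951079-48951103: cttattttgcCAGACgtctcatgcg
Both also fall within the first exon of the longer annotated transcript SMAD7-201, so they are not before the start of that transcript. SMAD7-201 held 65.0% of the SMAD7 RPKM. The searched SMAD7 window held no hypoxia core. Over all promoter windows 38.0% hold a SMAD core and 43.2% a hypoxia core. The part of either motif in the rise of SMAD7 was not tested.

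The order of the members by level was nearly the same in both conditions. In hypoxia it ran SMAD3, TGFB1, SMAD2, SMAD4, SMAD7, TGFBR2, TGFB2, TGFBR1, TGFB3 and INHBA. The ranges over libraries overlapped between SMAD3 and TGFB1, between SMAD7 and TGFBR2 and between TGFB2 and TGFBR1. In normoxia the order was the same except that TGFBR2 stood above SMAD7, and no neighbours overlapped. RPKM is per length, but a sum over transcripts gives short transcripts more weight per read.

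At the level of transcripts, an isoform of SMAD3 was the only one called. Of 21 member transcripts tested, 1 rose and 0 fell in limma (3 and 3 at an unadjusted p under 0.05), against 6.72% called among 26784 transcripts, 3.5% raised and 3.22% lowered. The raised one was SMAD3-204, which had 14.4, 11.9 and 15.01 RPKM in hypoxia, against 9.12, 9.52 and 7.50 RPKM in normoxia. Its groups did not overlap, as in 34.1% of all tested transcripts, and the log2 fold change was 0.60 (SE 0.12, adjusted p = 0.0312). The call was lost without hypoxic library 1 (0.0750) or 3 (0.0670) and without normoxic library 1 (0.0963), 2 (0.0790) or 3 (0.116). It was also lost with a replicate block (0.0892). SMAD3-204 held 24.6 ± 0.834% of the SMAD3 RPKM in hypoxia and 15.7 ± 1.34% in normoxia, while SMAD3-202 held 12.9 ± 6.96% in hypoxia and 21.5 ± 0.477% in normoxia. The main SMAD3 transcript, SMAD3-201, kept to 32.1 to 34.3 RPKM in hypoxia and 33.3 to 34.1 RPKM in normoxia.

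Transcript shares were compared for 22 transcripts, and 5 did not overlap between groups, against 12.6% of 23028 such shares over all genes. Of the 5, the TGFBR2-201 and TGFBR2-202 shares add up to the whole gene and so count 1 difference. For SMAD4, SMAD4-214, annotated as a target of nonsense-mediated decay, held 30.0 ± 3.07% in hypoxia and 20.4 ± 1.12% in normoxia. The largest SMAD4 transcript, SMAD4-217, has the same annotation and went the other way. It held 36.1 ± 5.07% in hypoxia and 42.1 ± 2.50% in normoxia, with overlap. SMAD4-214, SMAD4-205 and SMAD4-201 share exon bases, up to 814, with the same-strand gene ENSG00000267699 (mean 0.142 RPKM). For TGFBR2, the coding transcript TGFBR2-202 held 25.3 ± 2.76% in hypoxia and 20.9 ± 1.97% in normoxia, and the other coding transcript TGFBR2-201 held the remainder. Each of the 5 had an exact permutation p of 0.1, the smallest possible, and none was below 0.44 after adjustment over 22. SMAD7-201, the main coding transcript of SMAD7, had 7.59, 8.58 and 9.90 RPKM in hypoxia, against 6.71, 6.51 and 6.07 RPKM in normoxia. Its groups did not overlap, as in 34.1% of all tested transcripts, and limma did not call it (log2 fold change 0.38, adjusted p = 0.0792). The retained-intron transcript SMAD7-202 had 4.58, 3.77 and 2.11 RPKM in hypoxia, against 3.28, 3.03 and 3.33 RPKM in normoxia. Its groups overlapped (limma adjusted p = 0.906). Over the hypoxic libraries SMAD7-201 and SMAD7-202 ran in opposite order, so each varied more than the SMAD7 sum. A share is an estimate of how reads were divided between overlapping transcripts.

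**Figure D3:**
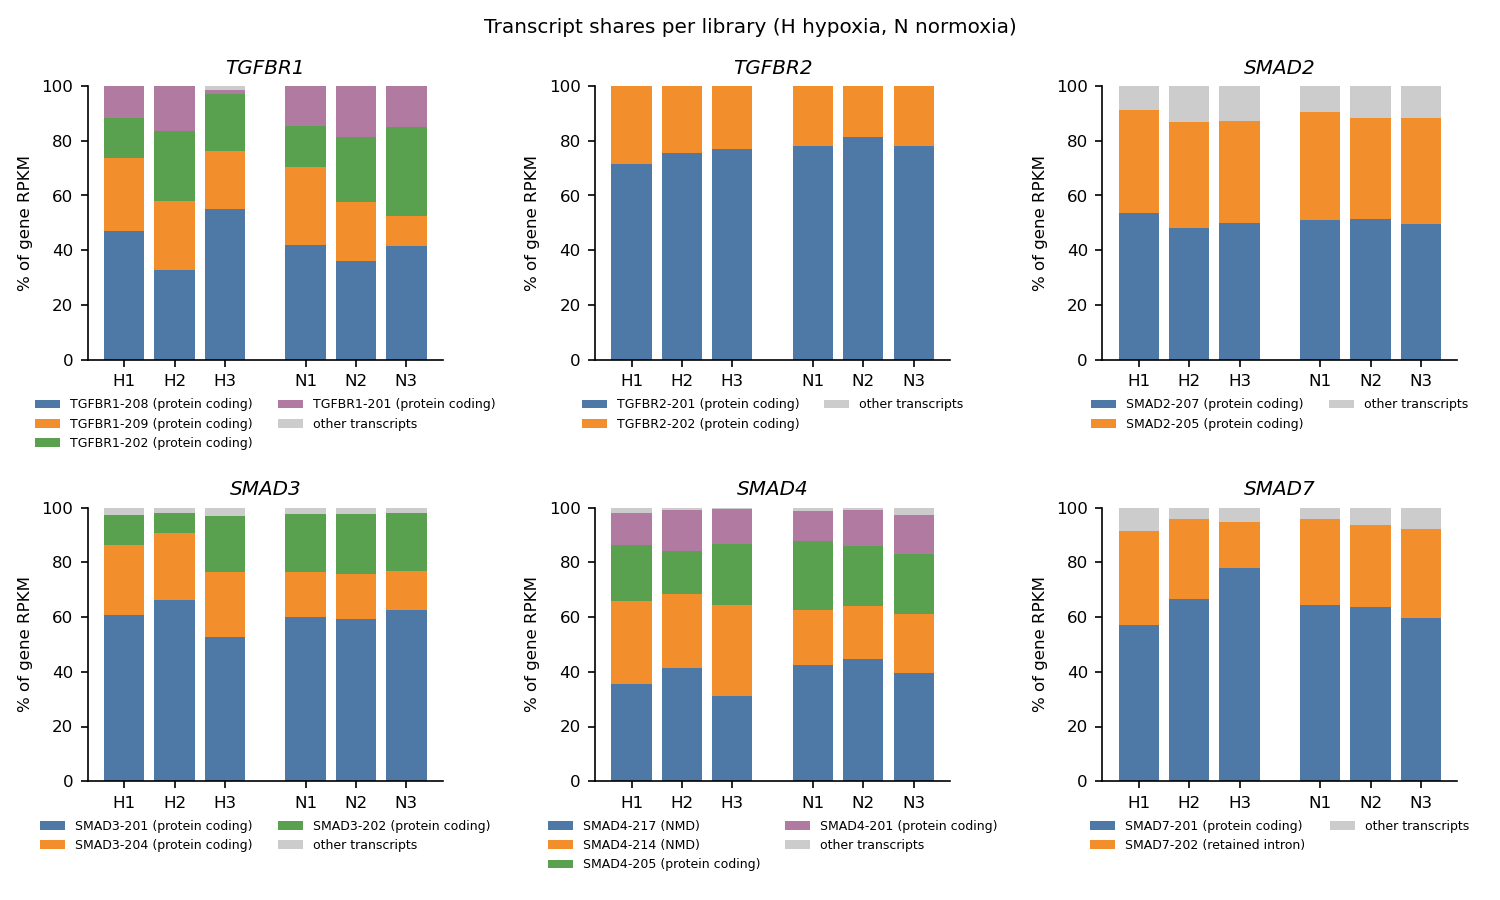
Share of each gene's RPKM held by its transcripts, in percent, for the 3 hypoxic libraries (H1 to H3, left) and the 3 normoxic libraries (N1 to N3, right) of 6 members. The SMAD3-204 and SMAD4-214 segments are taller in every hypoxic library, while TGFBR1 segments vary as much within groups as between them.

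The rest of the pathway was read through lists of ligands, receptors, regulators and responding genes. Over 62 tested genes of these lists, 17 rose (27.4%) and 13 fell (21.0%), against 12.4% and 24.4% of all tested genes, with a median log2 fold change of -0.01. The lists were chosen with earlier results of these data known, so these shares are descriptions. Among 2 tested other ligands, GDF11, a relative of myostatin, fell (log2 fold change -0.29, adjusted p = 0.0438), and its call was lost in 8 of 15 alternatives. None of 8 tested other receptors and coreceptors was called by limma, with 1 higher and 2 lower at an unadjusted p under 0.05. By limma 1 was lowered with equal sums, with protein-coding transcripts, with a GC trend removed and without hypoxic library 1, 1 was raised without hypoxic library 2, and limma-voom lowered 1. Of 3 tested SMADs of the BMP branch and SMAD6, SMAD5, a transducer of BMP signals, fell to 9.38 ± 1.22 RPKM in hypoxia, against 12.3 ± 0.796 RPKM in normoxia (adjusted p = 0.0126), a call lost in 3 of 16 alternatives.

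Among latency, processing and activation genes, the rise lay in LTBP2, LTBP3 and LTBP4. The list's median log2 fold change was 0.05, against -0.08 over all tested genes. Of 8 tested genes of latency, processing and activation, 3 rose (37.5%) and 1 fell (12.5%), against 12.4% and 24.4% of all tested genes. LTBP3, which tethers latent TGF-beta, had 71.6, 80.2 and 86.2 RPKM in hypoxia, against 46.9, 45.8 and 41.9 RPKM in normoxia. All hypoxic values were well above the normoxic ones (log2 fold change 0.81, SE 0.08, adjusted p = 2.91e-05). LTBP2 and LTBP4 rose by log2 fold changes of 0.54 and 0.42 (adjusted p = 0.00304 and 0.00562), while LTBP1 did not pass (0.07, adjusted p = 0.488). THBS1, an activator of latent TGF-beta, fell to 1.65 ± 0.112 RPKM in hypoxia, against 2.58 ± 0.236 RPKM in normoxia (adjusted p = 0.00495). With genes below the filter included, 1 gene of this list rose in place of 3.

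Of 7 extracellular and membrane inhibitors listed, only 2 were tested. Of these 1 rose and 1 fell, against 12.4% and 24.4% of all tested genes. FSTL3, which binds activin, rose to 21.7 ± 1.40 RPKM in hypoxia, against 13.2 ± 0.638 RPKM in normoxia (log2 fold change 0.68, adjusted p = 7.32e-05). FST, follistatin, fell to 2.01 ± 0.290 RPKM in hypoxia, against 2.98 ± 0.215 RPKM in normoxia (log2 fold change -0.40, adjusted p = 0.00923), a call lost with genes below the filter included (0.0615). Of 17 tested intracellular regulators, 1 rose (5.88%) and 5 fell (29.4%), with a median of -0.19; the share that fell is near the 24.4% of all tested genes. NEDD4L, a ubiquitin ligase for activated SMADs, rose (log2 fold change 0.57, adjusted p = 0.00158). USP15, a deubiquitinase acting on the receptor, STRAP, a partner of SMAD7 at the receptor, and SMURF2, a ubiquitin ligase that SMAD7 brings to the receptor, fell by 0.40, 0.38 and 0.24 on the log2 scale (adjusted p = 0.00220, 0.000871 and 0.0115). The count of 5 ran between 2 with upper-quartile scaling and 10 with equal sums or limma-voom, and was 3 without any 1 normoxic library. In the test on protein-coding transcripts alone USP15 was not called (adjusted p = 0.232), and SMURF2 was not called with upper-quartile scaling (0.0516) or with genes below the filter included (0.0539).

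**Figure D4:**
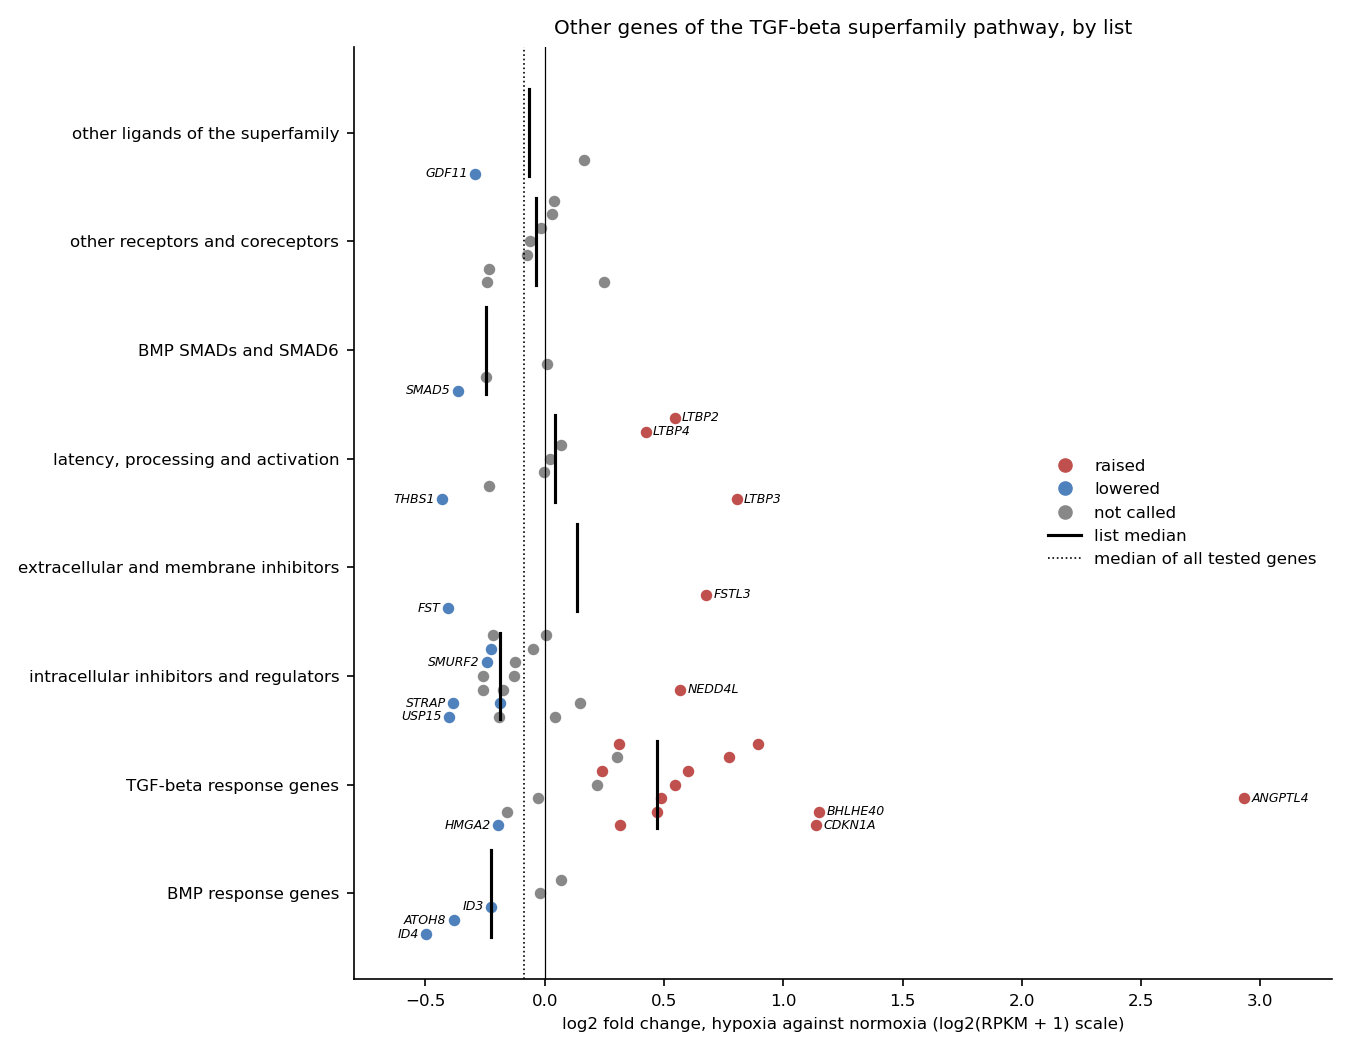
Log2 fold change, hypoxia against normoxia, of the tested genes of each pathway list, coloured by call, with up to 3 raised and 3 lowered genes named per list, the list median as a black bar and the median of all tested genes as a dotted line. The TGF-beta responding genes lie mostly to the right, at a median of 0.47, and the BMP responding genes mostly to the left, at a median of -0.22.

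Genes known to respond to TGF-beta were mostly raised. Of 17 tested, 12 rose (70.6%, against 12.4% of all tested genes) and 1 fell, with a median log2 fold change of 0.47. This list too was chosen with earlier results known, and its share is no independent evidence of a direction. The count of raised genes stayed between 11 and 13 in every alternative. ANGPTL4, a secreted regulator of lipid uptake, rose to 91.5 ± 11.4 RPKM in hypoxia, against 11.1 ± 0.890 RPKM in normoxia (log2 fold change 2.93, adjusted p = 3.04e-09). BHLHE40, a transcriptional repressor, and CDKN1A, an inhibitor of the cell cycle, rose by log2 fold changes of 1.15 and 1.14 (adjusted p = 4.12e-07 and 2.30e-05). The matrix gene COL1A1, also among the fibroblast markers above, rose by a log2 fold change of 0.60 and CCN2 by 0.49 (adjusted p = 0.000210 and 0.000271); these last 2 genes were singled out after their values were seen. HMGA2 fell (log2 fold change -0.19, adjusted p = 0.0468), a call lost in 10 of 16 alternatives. ANGPTL4 and BHLHE40 are also known as direct targets of the hypoxia-inducible factors, and the part of that regulation in the count was not tested. Of 5 tested BMP responding genes, 3 fell and 0 rose, against 24.4% and 12.4% of all tested genes: ID4, ATOH8 and ID3 fell by 0.50, 0.38 and 0.22 on the log2 scale (adjusted p = 0.000964, 0.0115 and 0.0262), and 1 fell with genes below the filter included or without normoxic library 1. The ID3 call was lost in 6 of 16 alternatives, with adjusted p up to 0.143 with upper-quartile scaling. ATOH8 stood near the filter, at 0.920, 0.972 and 1.20 RPKM in hypoxia, against 1.80, 1.60 and 1.52 RPKM in normoxia. It passed the filter through the normoxic libraries, where it was higher, so its place among the falls depends on that group.

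The genes nearest in pattern over the 6 libraries were sought among 8149 genes, as the smallest distance between log2 values after centring. For SMAD7 they were EIF4B, SNHG5 and ST3GAL3, at distances of 0.08, 0.09 and 0.10. For TGFB2 they were POLB, DPYD and GLA, at distances of 0.04, 0.05 and 0.07.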

How the data were processed

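RNA-seq values of SUM1315 cells came from 1 deposited table of 165956 Ensembl transcripts in 6 libraries. Per the submitters' processing notes the authors used Trimmomatic, HISAT2, SAMtools and Partek with GRCh38 (hg38); for annotation and counting settings, sources used here give nothing. The deposited values are RPKM, a unit read from the values: 79.4 to 81.2% of low values lay within 0.1 of whole multiples of 1 read. Transcripts were joined to GENCODE 29 by ID (84.4% matched; the 25952 unmatched held 3.44 to 3.68% of RPKM) and summed per gene. Genes above 1 RPKM in at least 3 libraries were tested as log2(RPKM + 1) with limma 3.58.1 in R 4.3.3, 3 libraries a group, Benjamini-Hochberg adjusted, called under 0.05, after a check on simulated data. Shares used the exact permutation test. Joins and plots used Python 3.11.15, pandas 2.3.3 and matplotlib 3.10.9. Libraries of a group differed by more than sampling noise, by the mean chi-square of estimated reads per pair of libraries. It was 20.9 to 25.7 in hypoxia and 6.69 to 12.8 in normoxia, and no p-value was computed. The spread was thus larger in hypoxia, while limma used 1 variance per gene for both groups. Up to 3 raised and 3 lowered genes with the largest change were named per list, and all members. A listed gene is counted but not reported by name here. Members and lists were chosen with earlier results of these data known. Alternatives covered scaling, filter, pseudocount, replicate block, leaving out each library, protein-coding transcripts, a GC trend and limma-voom on estimated reads. Counting error alone is covered by the limit for a count of 0.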

Additional observations from a re-analysis of the deposited data

How the results depend on the processing

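SMAD7 kept its call in all 16 alternatives and TGFB2 in 15. Members raised numbered 3 with median-of-ratios or upper-quartile scaling and 2 with a GC trend removed, and 1 to 2 when a library was left out. Members lowered numbered 0 with no filter on low values and 1 to 2 when a library was left out. Over all genes, those lowered numbered 2901 in the main fit, 1665 under upper-quartile and 1929 under median-of-ratios scaling, and 1367 once weak genes were included. They numbered 4219 with equal sums, 3730 with limma-voom and 3278 with a GC trend removed. When a library was left out, 1522 to 2852 genes were lowered and 1027 to 1518 raised. Other pathway genes lowered numbered 8 with median-of-ratios scaling, 7 with upper-quartile scaling, 21 with equal sums or limma-voom, 6 with no filter, and 7 to 13 when a library was left out. Libraries with the same replicate number showed little joint deviation (correlations 0.090, 0.030 and -0.227). With 3 libraries a group, these values cannot settle whether the numbers pair the libraries. With the replicate block, members raised and lowered stayed at 1 and 1, and TGFB2 and SMAD7 had adjusted p of 0.00826 and 0.0132 in limma. Member transcripts raised fell to 0 with the block (SMAD3-204, adjusted p = 0.0892). Member transcripts raised and lowered each numbered 0 to 1 when a library was left out. The TGFB3 share difference was -0.791 percentage points with protein-coding transcripts. The sign of TGFB3 turned with equal sums (-0.000830), protein-coding transcripts (-0.171), limma-voom (-0.110) and without normoxic replicate 2 (-0.0287), as did that of SMAD3 with equal sums (-0.0640), protein-coding transcripts (-0.00109), GC trend removed (-0.0219), limma-voom (-0.0214) and without hypoxic replicates 1 (-0.00610) and 3 (-0.0845) or normoxic replicate 3 (-0.0272) (when a library was left out, TGFB3 ran from -0.0287 to 0.113 and SMAD3 from -0.0845 to 0.101); the cause was not tested. Depth limits INHBA and TGFB3 most. Summing RPKM weights short transcripts, and strand was not used.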
